A study of Solanum lycopersicum with 18 samples.

Results

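The change from green to pink in wild-type tomato fruit is described here from the 3 libraries of 35 DAP and the 3 of 45 DAP, the fruit ages given in the labels. Genes were kept where the value reached 1 RPKM or more in at least 3 of these 6 libraries, which held for 18480 of the 35802 gene identifiers in the table. RPKM is the number of reads per kilobase of gene, scaled to the read total of the library, so levels of different genes can be compared per length. The study sequenced RNA of sliced fruits in 18 libraries, 3 for each of 3 genotypes at both ages. The wild type is the Ailsa Craig cultivar, grown in a glasshouse with no treatment named. The mutant rin is in the Ailsa Craig background, and TF18 is an Ailsa Craig transgenic line with FUL1 and FUL2 suppressed. TF18 is 1 line, with its construct and promoter not given in the sources used here. Both serve below only to set the wild-type change against the same interval in fruit with altered ripening factors. Whether replicates are separate plants is not said in the labels, so some of the spread among libraries may be technical. The p-values speak only for that spread, pooled over all 18 libraries and 3 genotypes, and not for that of the wild type alone.

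Tomato is the model of climacteric fruit, in which a burst of ethylene accompanies ripening. MADS-box and NAC transcription factors switch on ethylene synthesis and, with the hormone, the enzymes that soften cell walls, make lycopene and produce aroma compounds. At the same time green plastids lose chlorophyll and become chromoplasts, and starch and the bitter glycoalkaloids of the green fruit are used up or converted. Wild-type fruit picked at 35 DAP is labelled green and at 45 DAP pink, and genes known from these processes were followed by name.

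Depth fell on the side of the pink fruit. The green libraries held 15.326 to 17.334 M reads and 18690 to 18949 genes at 1 RPKM or more, and the pink libraries held 5.741 to 10.452 M reads and 14746 to 16041 genes. Pink replicate 2 stood apart from the other pink libraries. It had the fewest reads, and its log2 values deviated from the group mean with an SD of 0.596 over genes, against 0.449 and 0.400 in pink replicates 1 and 3 and 0.297 to 0.333 in the green libraries. In 233 genes both other pink values (RPKM + 1) were over 4 times its own, and in 250 genes its own was over 4 times both. Calls of genes described below that change when it is left out are given with and without it. The stage labels were set against 6 genes of ripe fruit, PG2a, E4, E8, PSY1, ACS2 and ACS4, all of which rose as described below, and against genes of green tissue. These genes were chosen with earlier results of these data known, so their changes are no independent check of the labels. No library was a second copy of another, since replicate pairs gave chi-squares of 46.7 to 96.3 per gene.

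A gene is said to have risen or fallen where limma's moderated test on log2(RPKM + 1) gave a Benjamini-Hochberg adjusted p below 0.05 and the log2 fold change was 1 or more in size. By this rule 1526 of the 18480 genes rose at 45 DAP, 8.26% of those tested, and 6762 fell, 36.6%. Of these, 87 rose and 133 fell by at least 32-fold on the fitted scale. The deposited values are shares of each library, and over all genes the log2 fold change had a median of -0.60. Under TMM-type scaling, which lines up the bulk of the genes, the median was -0.11 and 3378 genes rose and 4821 fell, 18.3% and 26.1% of those tested. With quantile normalization it was 0.08, and 2951 (16.0%) rose and 3067 (16.6%) fell. All 3 scalings shared 1412 rises and 2759 falls. Without pink replicate 2, 1586 genes rose and 6000 fell. The 6 wild-type libraries fitted alone gave 1499 rises and 6583 falls. The limma adjusted p was then 2.46e-05 for PG2a and 1.25e-05 for ACS4, against 2.3e-11 and 6.39e-10 with the spread of all 18 libraries. For some genes it was smaller, as for the lipoxygenase LoxA, with a limma adjusted p of 0.00398 against 0.0299.

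**Figure D1:**
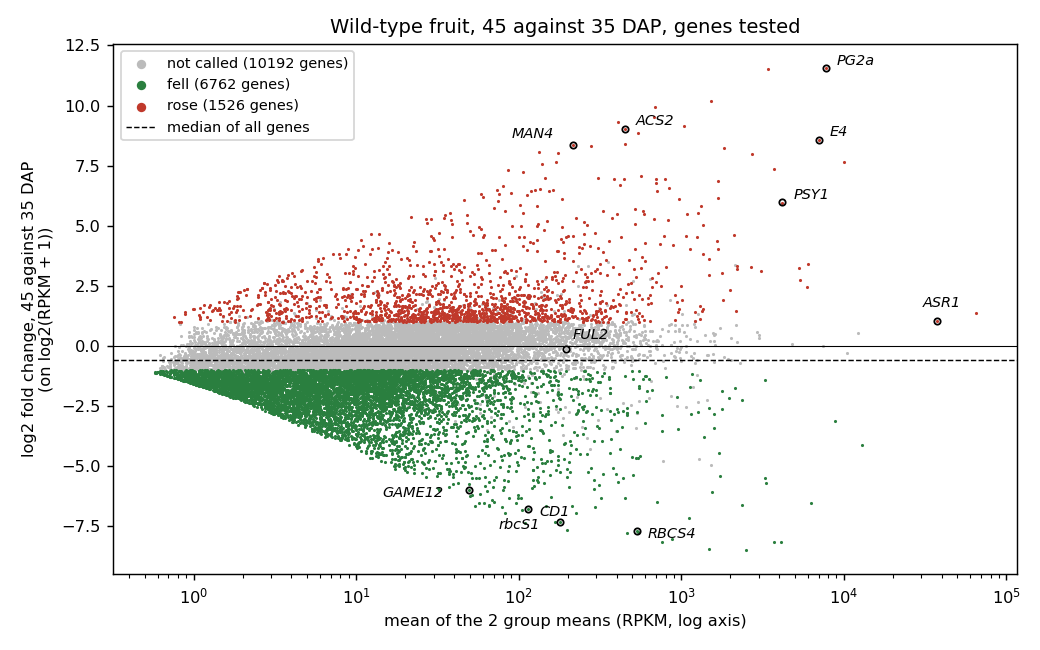
Log2 fold change at 45 against 35 DAP of each gene tested (vertical axis, on log2(RPKM + 1)) against the mean of the 2 group means (horizontal axis, RPKM, log scale), coloured by call, with some named genes circled and the median of all genes dashed. The 6762 falls crowd at low levels and the rises reach log2 fold changes of 11.56.

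Rises were concentrated among abundant transcripts and falls among scarce ones. Of the 128 genes with a mean over the 6 libraries of 1000 RPKM or more, 36.7% rose and 22.7% fell. Of the 4655 genes with a mean from 3 to under 10 RPKM, 3.95% rose and 50.1% fell. The order was the same with TMM-type scaling, where 48.4% of the most abundant group rose and 15.6% fell, against 8.31% and 37.1% in the scarce group. Gene lengths were solved from the RPKM values, as the shortest that made all reads whole numbers, and not taken from an annotation. Genes that rose had a median solved length of 771 bases and genes that fell one of 1311 bases, against 972 bases among the rest. Calls were spread over all 12 numbered chromosomes, with 6.22% to 9.53% of each chromosome's genes rising and 34.5% to 40.4% falling. The lower depth of the pink libraries moves with the falls of scarce genes, and its part in them was not tested.

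Some genes went from almost no reads to a large share of the fruit's mRNA. The gene with the largest rise was PG2a (Solyc10g080210), the polygalacturonase that cuts pectin in ripe fruit, which stood at 4.32, 2.81 and 3.13 RPKM at 35 DAP and 7312, 11351 and 27757 RPKM at 45 DAP. All pink values lay far above the green ones, with pink replicate 3 the highest (log2 fold change 11.56, SE 0.39, limma adjusted p = 2.3e-11). Next came Solyc08g066240, a gene that the reference table at hand does not name, with 1.64, 1.38 and 0.929 RPKM at 35 DAP and 6988, 5834 and 7777 RPKM at 45 DAP (log2 fold change 11.54, SE 0.26, limma adjusted p = 1.36e-13). A further gene without a name, Solyc00g060810, had 0.523, 0.405 and 4.73 RPKM at 35 DAP and 4820.3, 3014 and 1289 RPKM at 45 DAP (log2 fold change 10.17, SE 0.52, limma adjusted p = 2.06e-09, and 10.83 without green replicate 3). Among the 10 largest rises with separate groups and a mean of at least 10 RPKM, the named ones were PG2a, ACS2 and E4.

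The deepest falls were those of Solyc09g090150 and Solyc03g005580, neither named in the reference table. Both had been put on a list of seed markers as 11S globulins, from knowledge of tomato genes. The falls of rank 4 and 5 were on that list too. The part of seed tissue in these falls was not tested. Solyc09g090150 had 7535, 4259.6 and 3213 RPKM at 35 DAP and 3.31, 59.7 and 7.37 RPKM at 45 DAP (log2 fold change -8.5, SE 2.25, limma adjusted p = 0.004). Solyc03g005580 had 5389, 2522 and 963 RPKM at 35 DAP and 2.84, 13.9 and 4.36 RPKM at 45 DAP (log2 fold change -8.45, SE 1.89, limma adjusted p = 0.00122). Both had wide SEs, although no pink value reached the lowest green one. The value of Solyc09g090150 was -7.701 without pink replicate 1 and -9.61 without pink replicate 2, and that of Solyc03g005580 was -7.85 without green replicate 1 and -9.096 without green replicate 3. The named gene among the 10 deepest falls was RBCS4, a small subunit of the carbon-fixing enzyme Rubisco. No reads at all fell on 220 of the 18480 tested genes in the pink libraries, and on 24 in the green ones. Such genes passed the filter on low values only through the group that had reads. The pink libraries were also shallower, and the part of depth in these counts was not tested.

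Named genes were grouped into 19 lists by function, with 172 identifiers kept, of which 163 passed the filter on low values. Of these 163, 48 rose, 62 fell and 53 passed in neither direction. These lists hold well-known ripening genes, so their shares do not stand for the whole transcriptome. With TMM-type scaling 57 rose and 46 fell, with quantile normalization 49 rose and 50 fell, and without pink replicate 2, 49 rose and 57 fell. Median log2 fold changes ran from -4.74 for photosystem and chlorophyll-binding proteins to 6.95 for ethylene synthesis genes with E4 and E8, against -0.60 over all genes.

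**Figure D2:**
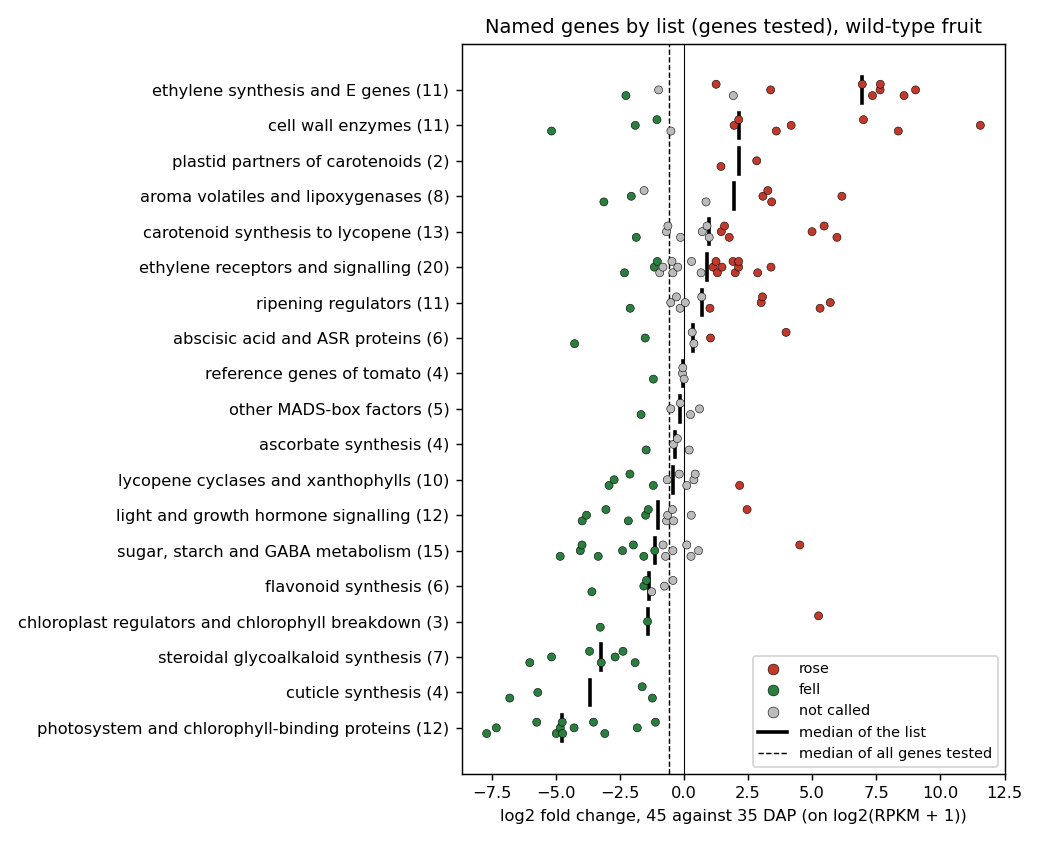
Log2 fold change at 45 against 35 DAP (horizontal axis, on log2(RPKM + 1)) of each named gene tested, by list, with the number of genes in parentheses, the list's median as a bar and the median of all genes tested dashed. All 12 photosystem genes, all 7 glycoalkaloid genes and all 4 cuticle genes lie on the falling side. The list of ethylene synthesis genes with E4 and E8 has the highest median.

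The regulators of ripening, transcription factors and a DNA demethylase, did not move as a block. Of 11 tested, 5 rose and 1 fell, against 8.26% and 36.6% of all genes. The counts were the same under TMM-type scaling, and 6 rose and 1 fell without pink replicate 2. The MADS-box factor RIN (Solyc05g012020), named for the ripening inhibitor mutation, stood at 11.6, 13.4 and 32.2 RPKM at 35 DAP and 886, 576 and 729.5 RPKM at 45 DAP. Its partner FUL1 (Solyc06g069430), a FRUITFULL-type MADS-box factor, stood at 10.2, 14.1 and 42.9 RPKM at 35 DAP and 1099.8, 981 and 975 RPKM at 45 DAP. The groups were far apart for both, with the highest green value in replicate 3, and the log2 fold changes were 5.31 ± 0.56 (SE) and 5.71 ± 0.69 (SE) (limma adjusted p = 1.63e-06 and 6.13e-06). Without green replicate 3 the value of FUL1 was 6.29. Its close relative FUL2 (Solyc03g114830) showed nothing of the kind, with 200.4, 232 and 181 RPKM at 35 DAP and 195, 202 and 158 RPKM at 45 DAP, and the groups overlapped (log2 fold change -0.15, SE 0.18, limma adjusted p = 0.477).

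The NAC factor NOR (Solyc10g006880), named for the non-ripening mutation, rose from 56.8 RPKM ± 15.3 to 503 RPKM ± 249 (SD, n = 3 each) (log2 fold change 3.01, SE 0.47, limma adjusted p = 6.88e-05). AP2a (Solyc03g044300), an AP2-type factor that restrains ethylene production in ripening fruit, had 33.7, 28.3 and 29 RPKM at 35 DAP and 369.7, 100.2 and 474 RPKM at 45 DAP, and the lowest pink value, that of replicate 2, was still above all green ones (log2 fold change 3.06, SE 0.41, limma adjusted p = 1.42e-05, and 3.75 without it). TAGL1 (Solyc07g055920), a MADS-box factor of fleshy fruit expansion and ripening, rose less, from 159.6 RPKM ± 16.4 to 339 RPKM ± 126 (SD, n = 3 each) (log2 fold change 1.01, SE 0.24, limma adjusted p = 0.00171), and at 0.76 did not pass under quantile normalization. TAGL1 missed the rule, at log2 fold changes of 0.77 to 0.99, when green replicate 2 or 3 or pink replicate 1 or 3 was left out.

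A homeobox factor known to bind the promoter of an ACC oxidase gene, HB1 (Solyc02g086930), was the regulator that fell, with 159, 225 and 147 RPKM at 35 DAP and 32.3, 39.8 and 49.6 RPKM at 45 DAP (log2 fold change -2.09, SE 0.23, limma adjusted p = 2.61e-06). CNR (Solyc02g077920), the SBP-box factor of the Colorless non-ripening locus, had 87.3, 132 and 95.6 RPKM at 35 DAP and 344, 33.5 and 402 RPKM at 45 DAP. Pink replicate 2 lay under all green libraries and the other pink libraries lay above them, so the groups overlapped and the test was not passed (log2 fold change 0.70, limma adjusted p = 0.358). Without that library the log2 fold change was 1.84 (limma adjusted p = 0.000185), which passes. DML2 (Solyc10g083630), the DNA demethylase of ripening fruit, had 68.1, 54.1 and 74.4 RPKM at 35 DAP and 59.9, 15.1 and 99.6 RPKM at 45 DAP, again with pink replicate 2 far below the rest, and did not pass with or without it (log2 fold changes -0.51 and 0.25).

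**Figure D3:**
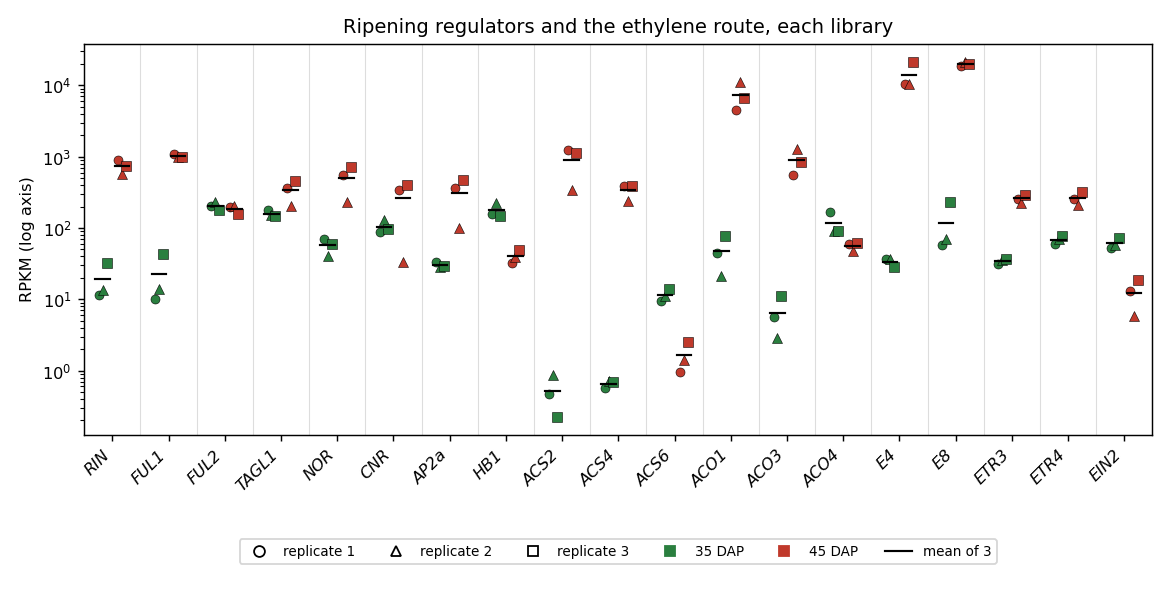
RPKM (log axis) of ripening regulators and genes of the ethylene route in each wild-type library, green for 35 DAP and red for 45 DAP, with the symbol giving the replicate and bars the mean of 3. FUL2 stays level near 205 RPKM while RIN and FUL1 rise, and pink replicate 2 is the low point of CNR and AP2a.

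The list of ethylene synthesis genes with E4 and E8 had the highest median of all lists. Of its 11 tested genes 8 rose and 1 fell, against 8.26% and 36.6% of all genes. E4 and E8, which respond to ethylene rather than make it, are among the 8. ACC synthase makes the ethylene precursor ACC, and ACC oxidase turns it into the gas. ACS2 (Solyc01g095080), an ACC synthase of ripening ethylene, stood at 0.475, 0.857 and 0.224 RPKM at 35 DAP and 1239, 346 and 1116 RPKM at 45 DAP (log2 fold change 9.03, SE 0.52, limma adjusted p = 5.97e-09, and 9.62 without pink replicate 2). ACS4 (Solyc05g050010), the other ACC synthase of ripening, stood at 0.564, 0.707 and 0.684 RPKM at 35 DAP and 389, 241 and 391 RPKM at 45 DAP (log2 fold change 7.66, SE 0.34, limma adjusted p = 6.39e-10). Neither reached 1 RPKM in any green library. ACS6 (Solyc08g008100), an ACC synthase tied to the low ethylene of unripe fruit, went the other way, from 11.4 RPKM ± 2.23 to 1.64 RPKM ± 0.812 (SD, n = 3 each) (log2 fold change -2.26, SE 0.37, limma adjusted p = 9.9e-05).

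The oxidases were uneven. ACO1 (Solyc07g049530) rose from 47.3 RPKM ± 27.7 to 7435 RPKM ± 3261 (SD, n = 3 each), a ratio of means of 157 (log2 fold change 7.35, SE 0.64, limma adjusted p = 2.93e-07). Its neighbour ACO3 (Solyc07g049550) rose from 6.53 RPKM ± 4.17 to 886 RPKM ± 355 (SD, n = 3 each), and reads shared between these related genes could be split in a way not given in the sources used here. ACO5 (Solyc07g026650) had 0.70, 4.92 and 1.01 RPKM at 35 DAP and 7.5, 177 and 14.1 RPKM at 45 DAP, carried mostly by pink replicate 2, and its log2 fold change went from 3.38 to 2.06 without it and to 4.25 without pink replicate 1, passing in both. ACO6 (Solyc02g036350) had 15.5, 10.7 and 29.4 RPKM at 35 DAP and 23.8, 37.7 and 334 RPKM at 45 DAP, with 1 pink library far above the others, and passed only with TMM-type scaling or quantile normalization (log2 fold changes 1.93, 2.5 and 2.18). ACO4 (Solyc02g081190) did not pass as deposited, at a log2 fold change of -0.99, and fell only with quantile normalization (-1.01).

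E4 and E8 are the classic ethylene-responsive genes of tomato ripening. E4 (Solyc03g111720), a methionine sulfoxide reductase, had 36.3, 36.7 and 28 RPKM at 35 DAP and 10377, 10329.6 and 21458 RPKM at 45 DAP (log2 fold change 8.58, SE 0.48, limma adjusted p = 4.98e-09). E8 (Solyc09g089580), a dioxygenase, had 58.5, 69.6 and 229 RPKM at 35 DAP and 18480.0, 20970.3 and 20181 RPKM at 45 DAP (log2 fold change 7.65, SE 0.69, limma adjusted p = 3.86e-07). Green replicate 3 was the highest of its group, as for RIN, FUL1 and ACO1, and without it the value of E8 was 8.26. On average E8 stood at 19877 RPKM in pink fruit and PG2a at 15473 RPKM, within the spread of the PG2a libraries.

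Of the 20 genes of ethylene perception and signalling, 10 rose and 3 fell, against 8.26% and 36.6% of all genes. With TMM-type scaling 11 rose and 1 fell. Receptors of this family hold the pathway off until ethylene binds. ETR3 (Solyc09g075440), the receptor of the Never-ripe locus, rose from 34.4 RPKM ± 2.74 to 259.7 RPKM ± 33.5 (SD, n = 3 each) (log2 fold change 2.88, SE 0.26, limma adjusted p = 3.35e-07). ETR4 (Solyc06g053710) rose from 68.6 RPKM ± 8.81 to 264 RPKM ± 53 (SD, n = 3 each), and the scarcer ETR6 and ETR7 rose by log2 fold changes of 1.14 and 1.25. The call of ETR6 was lost without green replicate 2 (1.16), green replicate 3 (0.85), pink replicate 1 (1.05) or pink replicate 3 (1.04), where its limma adjusted p was 0.0564 to 0.126. ETR1 and ETR5 did not pass, at -0.47 and -0.24. ETR2 was called lower as deposited, at -1.04, but missed the rule with TMM-type scaling (-0.51), with quantile normalization (-0.27), and without green replicate 1 (-0.84), green replicate 2 (-0.995) or pink replicate 2 (-0.86).

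Downstream of the receptors the signs were mixed. EIN2 (Solyc09g007870), the membrane protein through which the signal passes, fell, with 52.8, 56.9 and 73.5 RPKM at 35 DAP and 13.1, 5.86 and 18.4 RPKM at 45 DAP (log2 fold change -2.32, SE 0.36, limma adjusted p = 6.26e-05), and did so under all 3 scalings. CTR3, a kinase of the CTR1 family, fell only as deposited (log2 fold change -1.16, against -0.62 with TMM-type scaling, and -0.84 without pink replicate 2), and CTR1 itself did not pass (0.30). Of the EIN3-type transcription factors that carry the response into the nucleus, EIL4 rose (1.31) and EIL1 did not pass (-0.43). EIL2 did not pass (-0.94) with pink replicate 2, its highest pink library, and fell without it (-1.49, limma adjusted p = 0.00197). EIL3 passed as a rise only with TMM-type scaling (0.67 and 1.25). EBF1, an F-box protein that marks EIN3-type factors for breakdown, rose from 32.2 RPKM ± 5.14 to 93.4 RPKM ± 27.2 (SD, n = 3 each) (log2 fold change 1.48 ± 0.28 (SE)). The 4 ethylene response factors on the list all rose, ERF.E1 (3.39), ERF.E4 (2.13), ERF.E2 (2.0) and ERF.B3 (2.13), as under the other 2 scalings. ERF.E1 was the most uneven, with 367, 1225 and 172 RPKM at 45 DAP, highest in pink replicate 2, and its log2 fold change was 2.63 without that library and 4.05 without pink replicate 3.

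The route to lycopene, the red pigment of tomato, was raised at its start in the carotenoid branch and in several later steps. Of 13 tested genes from the plastid isoprenoid precursors to lycopene, 6 rose and 1 fell, against 8.26% and 36.6% of all genes. PSY1 (Solyc03g031860), the fruit phytoene synthase that commits carbon to carotenoids, stood at 119, 104 and 153 RPKM at 35 DAP and 9676, 4783 and 10276 RPKM at 45 DAP (log2 fold change 5.97, SE 0.40, limma adjusted p = 2.7e-08). The zeta-carotene isomerase Z-ISO (Solyc12g098710) stood at 49.1, 42.6 and 46.3 RPKM at 35 DAP and 2128, 1539 and 2729 RPKM at 45 DAP (log2 fold change 5.47, SE 0.23, limma adjusted p = 3.33e-10), and GGPS2, which makes the substrate of PSY1, rose from 4.76 RPKM ± 2.36 to 178 RPKM ± 54.2 (SD, n = 3 each) (log2 fold change 5.0 ± 0.42 (SE)). Pink replicate 2 held less than the others of PSY1 and more of GGPS2. By contrast PSY2, the phytoene synthase of leaves, had overlapping groups and did not pass (-0.63).

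Other steps moved less. The desaturase ZDS rose from 53.4 RPKM ± 3.35 to 148 RPKM ± 12.8 (SD, n = 3 each) (log2 fold change 1.46 ± 0.13 (SE)), and the carotenoid isomerase CRTISO, of the tangerine locus, rose from 35.7 RPKM ± 3.23 to 118 RPKM ± 53 (SD, n = 3 each) (1.58 ± 0.30 (SE)). PDS, which desaturates phytoene, had all pink values above the green ones but a log2 fold change of 0.72, under the rule, and passed with TMM-type scaling (1.3). The same held for DXS1 and HDR, the first and the last enzyme of the plastid isoprenoid route, at 0.90 and 0.99 as deposited and 1.49 and 1.57 with TMM-type scaling, and without pink replicate 2 DXS1 also passed (1.1, limma adjusted p = 0.00115). The intermediate enzymes DXR and HDS did not pass under any of the 3 scalings (-0.68 and -0.13 as deposited). The isopentenyl diphosphate isomerases parted, IDI1 rising from 155 RPKM ± 19.9 to 529 RPKM ± 79.8 (SD, n = 3 each) and IDI2 falling from 22.6 RPKM ± 3.49 to 5.48 RPKM ± 0.521 (SD, n = 3 each) (log2 fold changes 1.77 and -1.86).

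Beyond lycopene, 2 of the 3 cyclases fell. LCY-E (Solyc12g008980), which leads to lutein, had 8.38, 9.84 and 5.15 RPKM at 35 DAP and 0.121, 0.11 and 0.16 RPKM at 45 DAP (log2 fold change -2.92, SE 0.28, limma adjusted p = 7.78e-07). LCY1 (Solyc04g040190), the beta-cyclase of green plastids, had 23.9, 28.6 and 26.1 RPKM at 35 DAP and 2.99, 3.25 and 3.12 RPKM at 45 DAP (log2 fold change -2.72, SE 0.16, limma adjusted p = 6.46e-09). CYC-B (Solyc06g074240), the beta-cyclase of chromoplasts, had overlapping groups (0.11) and passed as a rise only with quantile normalization (1.16). The hydroxylase CRTR-B2, best known from flowers, rose from 16.4 RPKM ± 6.96 to 75.8 RPKM ± 21.7 (SD, n = 3 each) (log2 fold change 2.17 ± 0.35 (SE)), CRTR-B1 did not pass (-0.18), and the zeaxanthin epoxidase ZEP fell from 60.6 RPKM ± 14.4 to 13.5 RPKM ± 4.35 (SD, n = 3 each) (-2.11 ± 0.26 (SE)). The dioxygenase CCD1A fell as deposited only (-1.19, against -0.68 with TMM-type scaling), and its neighbour CCD1B rose only with TMM-type scaling (0.44 and 1.03). Of the 10 tested genes from lycopene onwards, 1 rose and 4 fell as deposited, near the shares of 8.26% and 36.6% over all genes.

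**Figure D4:**
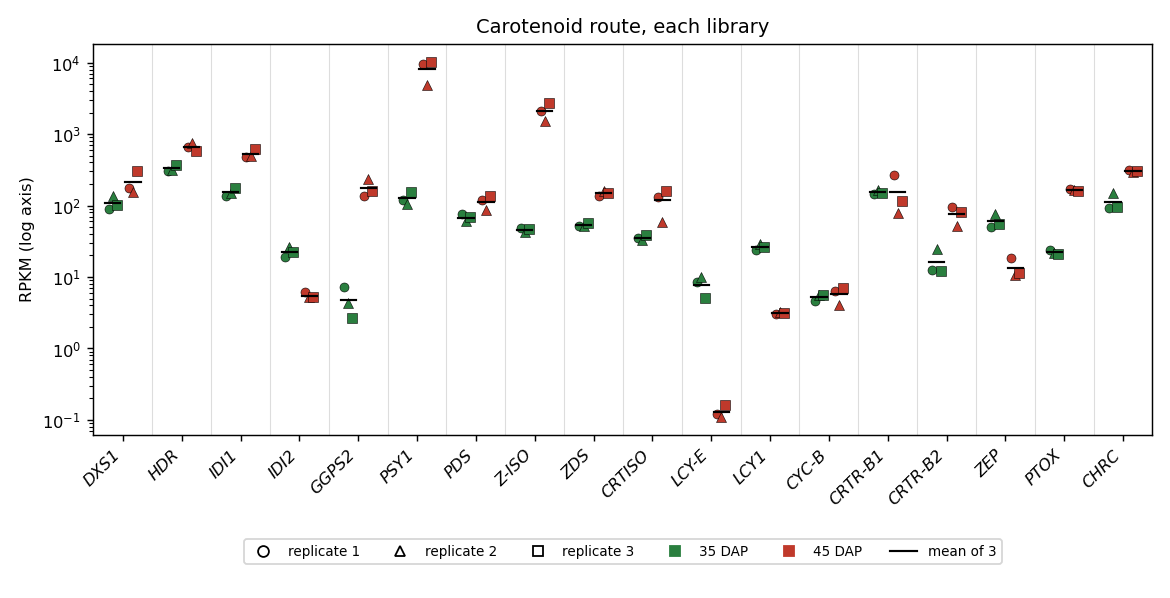
RPKM (log axis) of carotenoid genes in route order in each wild-type library, green for 35 DAP and red for 45 DAP, with the symbol giving the replicate and bars the mean of 3. PSY1, Z-ISO and GGPS2 rise furthest, and LCY-E and LCY1 fall below all green values.

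A pair of plastid proteins that serve carotenoids also rose. PTOX (Solyc11g011990), the terminal oxidase that takes electrons from carotenoid desaturation, had 24.2, 21.3 and 20.9 RPKM at 35 DAP and 168, 165 and 159 RPKM at 45 DAP, with little spread in either group (log2 fold change 2.84, SE 0.18, limma adjusted p = 1.25e-08). CHRC, a plastid lipid-associated protein of chromoplasts, rose from 113 RPKM ± 30.9 to 302 RPKM ± 10.1 (SD, n = 3 each) (log2 fold change 1.44 ± 0.48 (SE)).

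Cell wall enzymes split into risers of ripening and falling pectin methylesterases. Of 11 tested, 7 rose under each of the 3 scalings, and 3 fell as deposited against 1 with TMM-type scaling or without pink replicate 2. Over all genes 8.26% rose and 36.6% fell as deposited. Besides PG2a, the pectate lyase PL (Solyc03g111690) stood at 179.7, 88.6 and 516 RPKM at 35 DAP and 3062, 1325 and 3685 RPKM at 45 DAP (log2 fold change 3.6, SE 0.72, limma adjusted p = 0.000518). MAN4 (Solyc01g008710), an endo-beta-mannanase, had 3 reads over the green libraries and 10803 over the pink ones, a ratio of 7400 relative to the read totals (exact 95% interval 2530 to 35900, counting error only). CEL2 (Solyc09g010210), an endo-beta-glucanase, had 1.73, 2.14 and 2.62 RPKM at 35 DAP and 737, 85.7 and 1017 RPKM at 45 DAP (log2 fold change 7.0, SE 0.65, limma adjusted p = 5.38e-07). The expansin EXP1 (Solyc06g051800), which loosens walls without cutting them, had 55.1, 36.8 and 169 RPKM at 35 DAP and 2413, 395 and 2249.5 RPKM at 45 DAP (log2 fold change 4.18, SE 0.73, limma adjusted p = 0.000162). Pink replicate 2 was the lowest pink library for PL, CEL2 and EXP1 and the highest for MAN4. Without it the log2 fold changes of CEL2 and EXP1 were 8.11 and 5.03. Leaving out other libraries gave 6.33 for CEL2 without pink replicate 3, 4.81 for EXP1 without green replicate 3 and 9.098 for MAN4 without pink replicate 1, and for PL 3.01 and 4.28 without green replicates 2 and 3. The beta-galactosidase TBG4 and the xyloglucan endotransglucosylase XTH5 rose less, by log2 fold changes of 2.14 ± 0.27 (SE) and 1.96 ± 0.53 (SE).

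Pectin methylesterases remove methyl groups from pectin before polygalacturonase acts. PMEU1 (Solyc03g123630) fell from 329 RPKM ± 190.5 to 11.2 RPKM ± 10.9 (SD, n = 3 each), a log2 fold change of -5.16 ± 0.67 (SE), which was -4.18 without pink replicate 2 and -5.93 without pink replicate 3. PE1, abundant in green fruit, fell from 2749.5 RPKM ± 1205 to 804 RPKM ± 539.7 (SD, n = 3 each) (log2 fold change -1.9 ± 0.70 (SE), limma adjusted p = 0.0275), but missed the rule with TMM-type scaling (-1.31), and without green replicate 3 (-1.56), pink replicate 1 (-1.49) or pink replicate 2 (-1.79). Its neighbour PME2.1 was at -1.05 as deposited and -0.47 with TMM-type scaling, its call was lost without green replicate 2 or 3 (-0.97 and -1.002) or pink replicate 1 or 2 (-0.74 and -1.06), and these neighbouring copies may share reads.

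Aroma genes were raised in part. Of 8 tested, 4 rose and 2 fell, against 8.26% and 36.6% of all genes. AAT1 (Solyc08g005770), which makes acetate esters, had 26, 20.9 and 159 RPKM at 35 DAP and 3825, 2657 and 3385 RPKM at 45 DAP (log2 fold change 6.16, SE 0.82, limma adjusted p = 1.51e-05, and 7.06 without green replicate 3). ADH2, the alcohol dehydrogenase of ripe fruit, rose from 964 RPKM ± 159.9 to 11018 RPKM ± 4578 (SD, n = 3 each) (log2 fold change 3.42 ± 0.33 (SE)). The lipoxygenases went both ways. LoxB rose from 543 RPKM ± 279 to 4845 RPKM ± 25.5 (SD, n = 3 each) and LoxC, which feeds the short-chain green-leaf volatiles, from 27.7 RPKM ± 21.1 to 303 RPKM ± 334 (SD, n = 3 each) (3.27 and 3.08), the latter at 2.203 without pink replicate 3. LoxA had 253, 371 and 706 RPKM at 35 DAP and 67.8, 18.1 and 76 RPKM at 45 DAP and fell as deposited (log2 fold change -3.12, SE 1.18, limma adjusted p = 0.0299), but not with TMM-type scaling (-2.55), nor without green replicate 2 (-3.18), green replicate 3 (-2.72) or pink replicate 2 (-2.48). HPL, the hydroperoxide lyase after LoxC, passed only with TMM-type scaling (0.86 and 1.45), and the catechol methyltransferase CTOMT1 fell (-2.05).

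Flavonoid synthesis, which in tomato is strongest in the peel, held no gene that rose among 6 tested, and 3 fell, against 8.26% and 36.6% of all genes. With TMM-type scaling 1 fell, and with quantile normalization 2. CHI1 (Solyc05g010320), the chalcone isomerase, had 39.6, 34.8 and 27.3 RPKM at 35 DAP and 2.39, 1.79 and 1.49 RPKM at 45 DAP (log2 fold change -3.59, SE 0.28, limma adjusted p = 1.13e-07) and fell under all 3 scalings. F3H and MYB12, the hydroxylase after it and the MYB factor of the route, fell as deposited (-1.56 and -1.46) and lay just under the rule with TMM-type scaling (-0.99 and -0.98). MYB12 did not pass with quantile normalization (-0.46). F3H had overlapping groups, with 156, 113 and 50.5 RPKM at 35 DAP and 12.2, 40.3 and 64.1 RPKM at 45 DAP, and also missed the rule without green replicate 1 (-1.22), without pink replicate 1 (-0.91), and when the 6 wild-type libraries were fitted alone (limma adjusted p = 0.0723). The chalcone synthases CHS1 and CHS2 had overlapping groups and did not pass (-0.43 and -1.26). Without pink replicate 2, CHS2 also fell (-1.68).

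The green tissue programme fell as a block. All 12 named genes of the photosystems, their antennae and Rubisco fell, against 36.6% of all genes, and 11 of 12 with TMM-type scaling. The Rubisco small subunit RBCS4 (Solyc02g085950) had 824, 1458 and 893 RPKM at 35 DAP and 1.94, 10.6 and 2.57 RPKM at 45 DAP (log2 fold change -7.69, SE 0.60, limma adjusted p = 1.01e-07, and -8.31 without pink replicate 2), and rbcS1 (Solyc02g063150) had 363, 339 and 369 RPKM at 35 DAP and 0.876, 0.957 and 2.09 RPKM at 45 DAP (log2 fold change -7.32, SE 0.30, limma adjusted p = 2.52e-10). Members of the chlorophyll a/b-binding antenna fell by log2 fold changes of -5.74 (CAB5), -4.98 (CAB8), -4.82 (CAB4), -4.75 (CAB6A) and -4.28 (CAB7), and the minor antenna protein CP24 by -4.73. In each antenna gene green replicate 2 was the highest library, with 233, 792 and 169 RPKM at 35 DAP for CAB4 as an example. Without that library the log2 fold changes were -4.16 for CAB4, -3.64 for CAB6A and -4.08 for CP24, and without green replicate 3 that of CAB6A was -5.35. PsaD of photosystem I fell from 659.7 RPKM ± 125 to 76 RPKM ± 2.65 (SD, n = 3 each), and PsbS, which sheds excess light energy, from 249 RPKM ± 34.4 to 30.01 RPKM ± 25.1 (SD, n = 3 each), with a log2 fold change of -3.53 that was -2.57 without pink replicate 1 and -4.21 without pink replicate 3. Least affected were the oxygen-evolving proteins PsbP and PsbO, at -1.82 and -1.11, and PsbO did not pass with TMM-type scaling (-0.52) or without green replicate 3 (-0.99) or pink replicate 1 (-0.85). Near-identical antenna and Rubisco genes may share reads.

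Of 3 genes that build chloroplasts or take chlorophyll apart, 2 fell and 1 rose, against 36.6% and 8.26% of all genes. GLK2 (Solyc10g008160), the Golden2-like factor that builds chloroplasts in green fruit, had 21.8, 63 and 31.8 RPKM at 35 DAP and 5.78, 1.5 and 2.19 RPKM at 45 DAP (log2 fold change -3.26, SE 0.61, limma adjusted p = 0.000289). GLK1, its leaf counterpart, was scarce at 1.63, 1.86 and 2.88 RPKM at 35 DAP and fell too (-1.42), though not with quantile normalization (-0.35). SGR1 (Solyc08g080090), the Stay-green protein that starts chlorophyll breakdown, rose, with 38.5, 20.6 and 74.7 RPKM at 35 DAP and 2345, 997 and 1513 RPKM at 45 DAP (log2 fold change 5.25, SE 0.57, limma adjusted p = 2.42e-06). The summed RPKM of the 12 photosystem genes was 0.434% to 0.758% of the library total in green fruit and 0.0394% to 0.0685% in pink fruit. In bulk RNA, fewer green cells and less RNA per cell cannot be told apart.

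Of 15 tested genes of sugar, starch and GABA metabolism, 8 fell and 1 rose, against 36.6% and 8.26% of all genes. With TMM-type scaling 8 fell and 2 rose, and with quantile normalization 6 fell and 1 rose. TIV1 (Solyc03g083910), the vacuolar invertase that splits sucrose, was the riser, with 88.5, 82.7 and 128 RPKM at 35 DAP and 1415, 3076 and 2664 RPKM at 45 DAP (log2 fold change 4.52, SE 0.73, limma adjusted p = 8.3e-05). SUS1 (Solyc12g009300), a sucrose synthase, had 168, 225 and 83.2 RPKM at 35 DAP and 6.88, 6.05 and 13.9 RPKM at 45 DAP (log2 fold change -3.97, SE 0.62, limma adjusted p = 6.2e-05), while SUS3 did not pass (0.11). Starch genes fell steeply. GBSS1, the granule-bound starch synthase, fell from 167 RPKM ± 22.8 to 9.32 RPKM ± 2.59 (SD, n = 3 each) (log2 fold change -4.04 ± 0.28 (SE)), and AGPL1, a large subunit of ADP-glucose pyrophosphorylase, had 3260 reads over the green libraries and 14 over the pink ones. The sucrose transporters SUT2 and SUT4 fell (-1.97 and -1.56), SUT4 not with quantile normalization (-0.68), and SUT1 did not pass (-0.43). Of the glutamate decarboxylases, which make the GABA of green fruit, GAD2 and GAD3 fell (-2.39 and -3.34) and GAD1, the highest at 45 DAP with 338, 305 and 337 RPKM, did not pass (0.28).

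All 7 tested genes of steroidal glycoalkaloid synthesis fell, as deposited and with TMM-type scaling, and 4 of 7 with quantile normalization. Over all genes 36.6% fell as deposited. These genes make tomatine, the bitter defence compound of green fruit. GAME12 (Solyc12g006470), its aminotransferase, had 77.7, 174 and 44.1 RPKM at 35 DAP and 0.417, 0 and 0.644 RPKM at 45 DAP (log2 fold change -6.01, SE 0.53, limma adjusted p = 3.15e-07), and GAME11 (Solyc07g043420), a dioxygenase, had 196, 429.8 and 84.4 RPKM at 35 DAP and 1.12, 16.3 and 3.33 RPKM at 45 DAP (log2 fold change -5.16, SE 0.88, limma adjusted p = 0.000138). GAME9 (Solyc01g090340), the AP2-type regulator of the route, had 205 reads over the green libraries and 0 over the pink ones. Set against a floor of 3 reads over the pink group, this is at least 33.3-fold lower relative to the read totals. Green replicate 2 was the highest library for all 7 genes, and GAME4 shows the spread, with 10.7, 59.1 and 2.05 RPKM at 35 DAP. The 4 enzymes GAME1, GAME4, GAME17 and GAME18 fell by log2 fold changes of -2.68, -3.22, -1.9 and -3.68. Without green replicate 2 the calls of GAME4 and GAME9 were lost, with limma adjusted p = 0.0685 and 0.0526, and GAME1 and GAME18 were at -1.97 and -2.87. Without green replicate 3 the values were -4.26 for GAME4, -3.03 for GAME9, -4.399 for GAME18 and -5.75 for GAME11. GAME11 was at -4.49 without pink replicate 1 and at -6.0 without pink replicate 2.

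Cuticle genes, which mark the peel, fell as well, 4 of 4 tested as deposited and 2 of 4 with TMM-type scaling. Over all genes 36.6% fell as deposited. CD1 (Solyc11g006250), the cutin synthase, had 347, 268 and 69.3 RPKM at 35 DAP and 0.264, 1.12 and 0.815 RPKM at 45 DAP (log2 fold change -6.79, SE 0.64, limma adjusted p = 5.85e-07, and -7.498 without green replicate 3), and GPAT6 (Solyc09g014350), an acyltransferase of cutin synthesis, had 116, 99.2 and 37.4 RPKM at 35 DAP and 0.0632, 1.26 and 0.335 RPKM at 45 DAP (log2 fold change -5.7, SE 0.61, limma adjusted p = 1.85e-06). The wax enzyme CER6 and the cutin regulator CD2 fell by -1.63 and -1.23 as deposited, and missed the rule with TMM-type scaling (-1.1 and -0.70), CER6 also without pink replicate 1 (-1.12) and CD2 without pink replicate 2 (-0.90). The summed RPKM of the 5 cuticle genes went from 0.0137% to 0.0482% of the library total at 35 DAP to 0.00101% to 0.00222% at 45 DAP, and SHN3, a regulator of the cuticle, was at 0 in all pink libraries. The share of peel in the sliced fruit is not given in the sources used here, and its part in the falls of cuticle and flavonoid genes was not tested. No name of a seed marker was kept, so the seed list was not analysed as a set. The reference table lacked most of these names. It held that of the vicilins Solyc09g082330 and Solyc09g082340 in place, and these were left out by a separate exclusion. Solyc09g090150 and Solyc03g005580, the deepest falls, were on it.

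Of 6 genes of abscisic acid metabolism and the ASR family, 2 rose and 2 fell, against 8.26% and 36.6% of all genes. ASR1 (Solyc04g071610), an abscisic acid, stress and ripening protein, was already among the most abundant transcripts of green fruit, with 25936, 23238 and 24538 RPKM at 35 DAP and 57439, 42493 and 52277 RPKM at 45 DAP (log2 fold change 1.04, SE 0.31, limma adjusted p = 0.00891). It rose as deposited and with TMM-type scaling (1.63) and did not pass with quantile normalization (0.41), nor without green replicate 2 (0.997) or pink replicate 1 (0.94), nor in a fit of the 6 wild-type libraries alone. ASR4, in the same gene cluster, fell from 234 RPKM ± 52.8 to 11.4 RPKM ± 3.99 (SD, n = 3 each) (log2 fold change -4.26 ± 0.65 (SE)). The abscisic acid hydroxylase CYP707A2, which breaks the hormone down, rose from 1.13 RPKM ± 0.74 to 32 RPKM ± 8.46 (SD, n = 3 each) (3.98 ± 0.57 (SE)), and NCED1, the dioxygenase that starts its synthesis, had overlapping groups (0.39). The single most abundant transcript by the mean of the 6 libraries, Solyc07g049140, picked out after its values were seen and without a name in the table, had 35787, 28260.1 and 27256 RPKM at 35 DAP and 102032, 27609.8 and 171233 RPKM at 45 DAP. It rose as deposited (log2 fold change 1.38, SE 0.55, limma adjusted p = 0.0393) with overlapping groups, since pink replicate 2 lay within the green range, and its log2 fold change was -0.24 with quantile normalization. It did not pass in a fit of the 6 wild-type libraries alone. The call was lost when any library other than pink replicate 2 was left out, at 0.81 to 1.499, and without pink replicate 2 the value was 2.13.

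Of 12 genes of light and growth hormone signalling, 6 fell and 1 rose, against 36.6% and 8.26% of all genes, and 4 fell and 1 rose with TMM-type scaling. HY5 (Solyc08g061130), the bZIP factor of light responses, rose, with 6.41, 10.6 and 4.38 RPKM at 35 DAP and 51.5, 42.4 and 33 RPKM at 45 DAP (log2 fold change 2.46, SE 0.42, limma adjusted p = 0.000146). PHYB1, a phytochrome, fell from 28.3 RPKM ± 4.07 to 2.94 RPKM ± 2.12 (SD, n = 3 each) (log2 fold change -3.04 ± 0.38 (SE)), and PHYA did not pass (-0.45). The brassinosteroid receptor BRI1 had 28, 24 and 31.7 RPKM at 35 DAP and 0.739, 0.673 and 1.12 RPKM at 45 DAP (log2 fold change -3.97, SE 0.34, limma adjusted p = 2.72e-07). ARF4 (Solyc11g069190), an auxin response factor, fell from 126 RPKM ± 15.3 to 8.71 RPKM ± 4.55 (SD, n = 3 each) (log2 fold change -3.8 ± 0.30 (SE)). The auxin repressor IAA9 and the gibberellin repressor GAI fell as deposited (-1.39 and -1.49), and with TMM-type scaling lay just under the rule (-0.80 and -0.92).

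Of 5 other MADS-box factors tested, 1 fell, against 36.6% of all genes. MADS1 (Solyc03g114840), described as a restraint on ripening, fell, with 73.1, 66.9 and 68.2 RPKM at 35 DAP and 23.1, 11.8 and 34 RPKM at 45 DAP (log2 fold change -1.67, SE 0.34, limma adjusted p = 0.000606). TAG1, TM5 and TM29, flower identity factors, did not pass as deposited (0.26, -0.14 and 0.61), and TM29 rose with TMM-type scaling (1.19). Of 4 ascorbate genes, 1 fell, against 36.6% of all genes. It was the epimerase GME2 (-1.47), which did not fall with TMM-type scaling (-0.89).

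Genes used as references in tomato show what the scaling does. CAC, UBI3 and GAPDH, a clathrin adaptor, a ubiquitin and a glycolytic enzyme, had log2 fold changes of -0.06, 0.01 and -0.04 as deposited and 0.52, 0.60 and 0.54 with TMM-type scaling, and passed in neither. The actin gene ACT fell as deposited, from 1624 RPKM ± 679 to 691 RPKM ± 194 (SD, n = 3 each) (log2 fold change -1.19 ± 0.25 (SE)), and did not pass with TMM-type scaling (-0.60) or without green replicate 3 (-0.87).

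The wild-type interval was last set against the same interval in rin and in TF18, to ask which changes differ where ripening factors are altered. The targeted genes came first. TF18 held FUL2 at 53.7 RPKM ± 7.43 to 52.9 RPKM ± 9.61 (SD, n = 3 each) and FUL1 at 9.44 RPKM ± 7.68 to 18.2 RPKM ± 11.6 (SD, n = 3 each), below the wild type's 205 to 185 and 22.4 to 1019 RPKM. In rin, reads still fell on RIN, from 5.64 RPKM ± 3.49 to 2335 RPKM ± 457 (SD, n = 3 each), and the lesion is not given in the sources used here, so these reads do not check the label. When the difference in change was tested directly with limma, the change of 71 of the 163 named genes (43.6%) differed between rin and the wild type, against 28.5% of all genes tested, and that of 106 (65.0%) differed between TF18 and the wild type, against 42.0%. Both differences draw on the same wild-type libraries.

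In rin, PG2a stayed at 2.33 RPKM ± 0.574 to 2.45 RPKM ± 1.66 (SD, n = 3 each), and its change differed from the wild type's by -11.6 ± 0.55 (SE), limma adjusted p = 3.66e-09. PSY1 rose in rin by a log2 fold change of 1.6 against 5.97 in the wild type (difference -4.36 ± 0.57 (SE), limma adjusted p = 9.04e-05), and ACS2 by 3.35 against 9.03 (difference -5.68 ± 0.73 (SE), limma adjusted p = 8.05e-05). Some of the largest wild-type changes were not shown to differ in rin. E8 changed by 6.05 in rin and 7.65 in the wild type (difference -1.59 ± 0.97 (SE), limma adjusted p = 0.212), SGR1 by 5.04 and 5.25 (difference -0.21 ± 0.81 (SE), limma adjusted p = 0.86) and AAT1 by 5.86 and 6.16 (difference -0.30 ± 1.16 (SE), limma adjusted p = 0.859). Among the falls, CD1 changed by -6.38 and -6.79 (difference 0.41 ± 0.90 (SE), limma adjusted p = 0.745), and all 7 glycoalkaloid genes fell in rin too, where 9.25% of all genes tested fell, and for 1 of the 7 the difference passed. Among photosystem genes the difference passed for 9 of 12, against 28.5% of all genes, with PsaD at -0.31 in rin and -3.08 in the wild type (difference 2.77 ± 0.35 (SE), limma adjusted p = 7.3e-05).

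In TF18, 8 of the 163 named genes rose over the interval, against 0.427% of all genes tested. PG2a was at 0.016 RPKM ± 0.0278 to 0.0725 RPKM ± 0.126 (SD, n = 3 each), and E8 went from 177 RPKM ± 139.7 to 281 RPKM ± 168 (SD, n = 3 each) against 119 RPKM ± 95.7 to 19877 RPKM ± 1273 (SD, n = 3 each) in the wild type (difference -6.97 ± 0.97 (SE), limma adjusted p = 6.27e-05). The log2 fold change in TF18 was 0.58 for SGR1 (difference -4.67 ± 0.81 (SE), limma adjusted p = 0.000349) and 0.05 for PSY1 (difference -5.92 ± 0.57 (SE), limma adjusted p = 2.92e-06). The change differed from the wild type's in 11 of 12 photosystem genes, 9 of 11 cell wall genes and all 8 aroma genes tested, against 42.0% of all genes. Of the 4 cuticle genes tested, 3 rose in TF18, against 0.427% of all genes, CD1 from 0.047 RPKM ± 0.0418 to 24.3 RPKM ± 22.5 (SD, n = 3 each) and GPAT6 from 0.288 RPKM ± 0.0908 to 18 RPKM ± 14.3 (SD, n = 3 each), and the levels of CD1 and GPAT6 in the TF18 fruit of 35 DAP were far below those of green wild-type fruit.

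**Figure D5:**
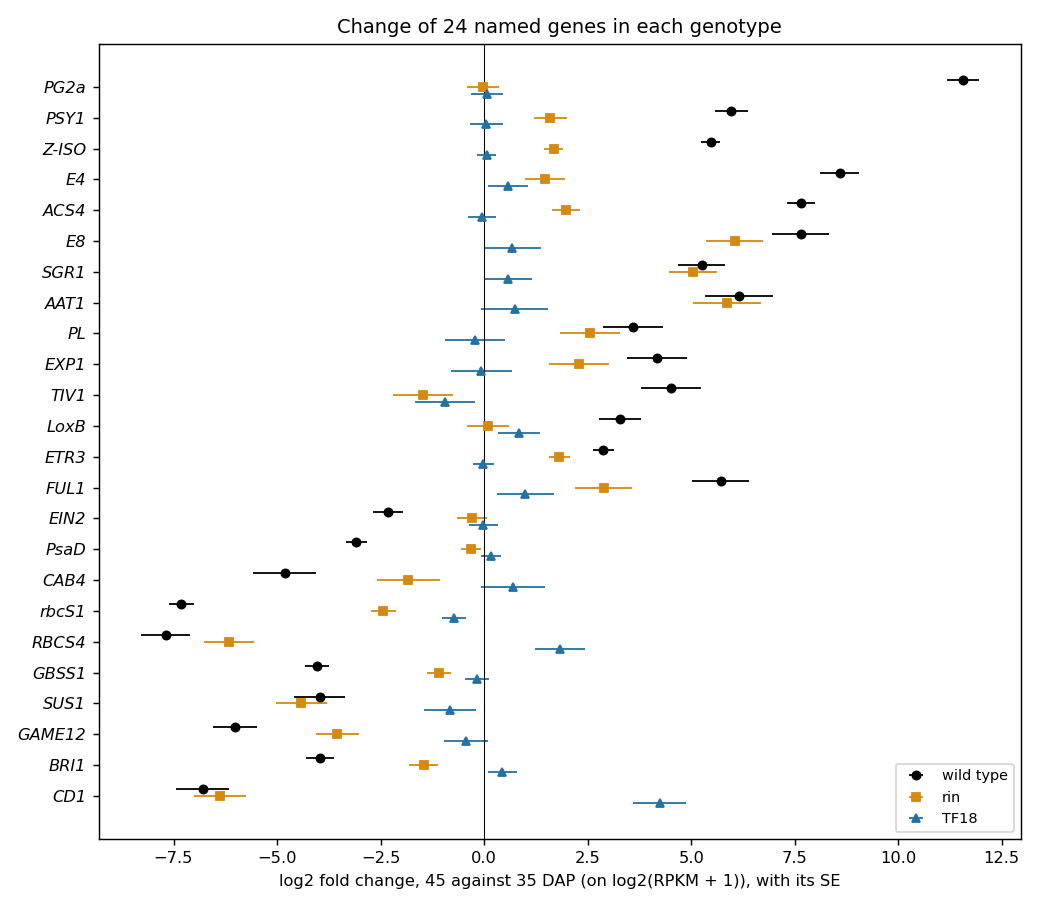
Log2 fold change at 45 against 35 DAP (horizontal axis, on log2(RPKM + 1), bars give the SE) of 24 named genes in the wild type (black), rin (orange) and TF18 (blue). Wild type and rin lie close for SGR1, AAT1, SUS1 and CD1 and far apart for PG2a, PSY1 and TIV1, and TF18 lies near 0 for most genes.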

How the data were processed

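Total RNA of wild-type, rin and TF18 fruit was sequenced, and the authors deposited 1 table of RPKM values per gene and library, per the file headers. CASAVA 1.8.1 and Bowtie2 are named in the submitters' processing notes; build, annotation, counting and the treatment of reads fitting several genes were not given in the sources used here. The groups come from the titles, and 0 columns lacked a sample. Reads and gene lengths behind the RPKM values were solved from their steps (100.0% of values above 0 whole within 0.02 reads). Intervals and floors from reads cover counting error only.

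Tests used limma 3.58.1 in R 4.3.3 on log2(RPKM + 1), 6 group means over 18 libraries, with a mean-variance trend and two-sided Benjamini-Hochberg adjustment over 18480 genes; fold changes understate low genes. On simulated data for this comparison over 18480 genes, 81% of 100 genes changed by 1.5 and 94% of 100 changed by 3 (log2) were recovered, with 5 false calls. The simulation drew normal noise with each gene's SD shared by all libraries. It changed only these genes, as many up as down, all with a green mean above 3 on the log2 scale. The real pink libraries were shallower and more uneven and far more genes changed, so these rates need not hold for them. TMM-type factors trimmed 30% of log ratios and 5% of levels at each end. Other steps used Python 3.11.15, numpy 2.4.6, pandas 2.3.3, scipy 1.17.1 and matplotlib 3.10.9.

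Members, lists and tests were chosen with earlier results of these data known, and 5 lists and 4 sugar genes (34 genes in all) were added after the table was read. Names were assigned to identifiers from knowledge of tomato genes. For 175 of 225 the RefSeq table of assembly SLM_r2.1 holds the name on the identifier's chromosome, and 172 were kept, all in matching order. PAR1 and the vicilins Solyc09g082330 and Solyc09g082340 passed this check and were left out by a separate exclusion. The other 53, among them all seed and small heat shock genes, were not analysed under their names. From the seed list, Solyc09g090150 and Solyc03g005580 are given as unnamed identifiers. Every kept gene could be named, plus the 10 largest rises and falls with separate groups and a mean of at least 10 RPKM in 1 group, of which at most 2 unnamed identifiers a direction are given. Alternatives were other pseudocounts, filters and scalings, smaller fits, a replicate block, library weights, voom and leaving out each library. Libraries of 35 and 45 DAP with the same replicate number showed little shared deviation, with correlations of -0.016, 0.061 and 0.029. The labels do not say whether the numbers pair them, and these correlations cannot settle it.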

Additional observations from a re-analysis of the deposited data

Results flagged for a closer look

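For 8 named genes the change over the interval passed in opposite directions in the wild type and in rin or TF18, and limma's test of the difference itself passed, on the deposited scale. With rin, the log2 change in the mutant minus that in the wild type was 3.51 for ACS6 and 3.08 for IDI2, which went down in wild-type and up in rin fruit, and -2.75 for ETR6, which went up in wild-type and down in rin fruit. With TF18 it was 5.64 for F3H, 4.19 for MYB12, 5.18 for CER6, 11.03 for CD1 and 9.27 for GPAT6, all of which went down in wild-type and up in TF18 fruit. Those from TF18 belong to the flavonoid and cuticle lists, and the share of peel in each sample, which is not given in the sources used here, was not tested. As described above, the wild-type calls of ETR6, F3H and CER6 were lost when some single library was left out. Those of F3H, MYB12 and CER6 missed the rule with TMM-type scaling, so for these 4 genes the opposite direction is less firm.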

How the results depend on the processing

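The counts of wild-type rises and falls moved by over 1.5 times under some settings. Rises numbered 3378 with TMM-type scaling, 2951 with quantile normalization and 3513 with voom and TMM-type scaling, against 1526, and falls 3719 with a pseudocount of 5 RPKM and 3067 with quantile normalization, against 6762. Leaving out 1 library gave 1412 to 1604 rises and 6000 to 7024 falls. Voom on the recovered reads, chosen after seeing the data, gave 1632 and 7094. The replicate block gave 1559 rises and 6655 falls. It was not used elsewhere, since the labels do not say that equal numbers pair the libraries. Named genes whose change differed from the wild type's numbered 51 to 73 in rin and 92 to 107 in TF18 over all settings. For 2 genes the direction reversed, both under quantile normalization, LIN7 at 0.0056 and Solyc07g049140 at -0.24, with the cause not tested. Of 115 calls, which take in 5 identifiers without a name, 19 were lost when some single library was left out, 8 of them without pink replicate 2; of those not named above, ACS1A was lost without green or pink replicate 2, LIN7 without green replicate 2 and CYP707A1 without green replicate 1 or 3 or pink replicate 2. Depth limits the pink libraries, whose 5.741 to 10.452 M reads make falls to near 0 bounds rather than values.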

Other observations

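The green libraries were not alike in genes of ripening and of green tissue. Of the 48 named genes that rose at 45 DAP, 24 had their highest green value in replicate 3, against 11 in replicate 1 and 13 in replicate 2. RIN, FUL1, E8, PL, EXP1, LoxB, LoxC and AAT1 were each more than 2 times higher in green replicate 3 than in either other green library. Of the 62 named genes that fell, 32 had their highest green value in replicate 2, against 13 in replicate 1 and 17 in replicate 3. CAB4, CAB6A, CAB8, CP24, AGPL1 and 6 of the 7 glycoalkaloid genes were more than 2 times higher there than in either other green library. Over all genes the leaning was weaker, with 39.6% of the rises highest in green replicate 3 and 38.0% of the falls highest in green replicate 2, and 41.7% of the genes that passed in neither direction were also highest in replicate 3. This was noticed after the values were seen and no test was made.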
